A study of Mus musculus with 40 samples.

Results

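Desmosomes are the button-like junctions that tie the keratin filaments of neighbouring epithelial cells together. Expression of 10 desmosome genes was examined in lungs of mice painted with N-nitroso-tris-chloroethylurea (NTCU), a carcinogen that produces squamous lesions of the airway. The genes were chosen by name, and all 10 were among the 37310 genes of the deposited table and among the 15630 genes that passed the filter on low values. They were divided by textbook use into the isoforms of simple epithelia (Dsg2, Dsc2 and Pkp2), the isoforms of stratified epithelia (Dsg3, Dsc3 and Pkp1) and components common to both (Dsp, Jup, Pkp3 and Perp, of which Perp is best known from stratified epithelia). The question was whether the dysplasia grade, the way the tissue was taken or the strain changed these genes, and whether the stratified isoforms moved against their simple counterparts.

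Of 40 libraries, the 25 that the labels mark as having passed quality control were analysed. Normal samples (n = 7) came from SWR/J or A/J mice given the acetone vehicle alone, with 0 µmol NTCU. Mild dysplasia (n = 5) was sampled in SWR/J mice given 15 µmol in total. The high-grade samples (n = 13) comprised 9 of moderate to severe dysplasia at 14 to 30 µmol, 2 of severe dysplasia at 50 µmol, 1 carcinoma in situ and 1 SCC tumor, both of the latter at 20 µmol. The mice were female, and 17 samples were of SWR/J and 8 of A/J. Cells taken by laser capture microdissection (LCM) gave 13 libraries and whole lung sections gave 12. The labels do not say which samples share a mouse, so p-values measure the spread between these samples. For 2 samples the description gives another histology than the grade label: normal replicate 10 is described as mild dysplasia and mild dysplasia replicate 5 as normal. Severe dysplasia was sampled in SWR/J alone and the carcinoma in situ and SCC in A/J alone, so that these grades and strains cannot be told apart. Mild dysplasia was sampled in SWR/J alone as well. Normal, mild and high-grade samples shared no NTCU dose, so grade and dose cannot be told apart either.

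Desmosomal cadherins, the desmogleins (Dsg) and desmocollins (Dsc), span the membrane and bind the cadherins of the next cell. Inside the cell the armadillo proteins plakoglobin (Jup) and the plakophilins (Pkp) link the cadherin tails to desmoplakin (Dsp), which holds the keratin filaments. Simple and pseudostratified epithelia such as the bronchial lining use mainly Dsg2, Dsc2 and Pkp2, whereas basal and suprabasal cells of stratified epithelia add the other isoforms. Pkp2, Dsg2 and Dsc2 are also the isoforms of heart muscle, which in the mouse extends along the pulmonary veins into the lung.

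The promoter of Perp is shown because Perp was the most abundant member and among those that ranged most over the libraries. The sequence is the 250 bases before the annotated gene start (GENCODE vM1, genome build NCBIM37, also called mm9), 5′ to 3′ on the plus strand, at chr10:18564627-18564876. Capitals mark the GC box, GGGCGG on either strand, and overlapping matches were counted separately.
Perp: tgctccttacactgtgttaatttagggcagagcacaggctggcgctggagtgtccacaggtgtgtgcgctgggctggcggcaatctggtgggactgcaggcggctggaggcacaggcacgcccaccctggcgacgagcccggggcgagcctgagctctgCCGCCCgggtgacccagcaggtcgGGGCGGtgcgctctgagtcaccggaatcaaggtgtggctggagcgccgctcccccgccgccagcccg
The window held 2 GC boxes, and 41.1% of 22378 promoters of the same length held at least 1. No TATA box (TATAAA) was found in it, and 12.2% of all promoters held one. No match to the p53 family half-site was found in it either, and 6.32% of all promoters held one. Such matches describe letters in the window, and no binding was measured.

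The libraries held 2667387 to 16534728 expected counts, an expected count being the number of reads that the counting program assigned to a gene. The levels given here are log2 CPM (counts scaled to library size) after TMM scaling, with a prior count of 2. Only Dsg3 had a library with no read. RNA quality differed widely, with a median transcript integrity number (TIN) of 21.7 to 75.1. In 5 libraries the 7 markers of oesophagus and cornified epithelium (Krt4, Krt13, Sprr3, Krt10, Krt1, Lor and Flg) summed to 13654 to 93991 CPM, whereas the other 20 libraries reached at most 3900 CPM and as little as 4.3. These libraries were normal replicate 7, moderate to severe dysplasia replicates 7 and 13 and severe dysplasia replicates 2 and 4. All were of SWR/J, with a median TIN of 21.7 to 39.1. Skeletal muscle markers summed to 1248 to 8629 CPM in them and to 1.0 to 1332 CPM in the rest. One further library, normal replicate 8, held 37.8 CPM of the 4 general epithelial markers (Epcam, Cdh1, Krt8 and Krt18), where every other library held 227 to 2236 CPM. Airway basal cell markers (Krt5, Krt14, Krt15, Trp63, Ngfr and Aqp3) summed to 37 to 6116 CPM, and no marker was at 0 in every library of a grade. In bulk tissue, fewer cells of a type and less RNA per cell cannot be told apart.

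Compared per kilobase of exon, Perp was the most abundant of the 10 transcripts, with a median of 6.43 log2 CPM per kb over the 25 libraries. Perp is a small membrane protein of desmosomes and a known p53 and p63 target. Plakoglobin followed at a median of 4.42 log2 CPM per kb, then Pkp3 at 3.20, Dsp at 3.11 and Pkp1 at 2.96. Dsc2 had a median of 2.76 log2 CPM per kb, Dsc3 2.21 and Pkp2 1.90. The desmogleins were lowest, with Dsg2 at 1.27 and Dsg3 at 1.23 log2 CPM per kb. With the length of the longest transcript in place of all exons, Pkp2 and Dsc3 changed places and the rest of the order was kept. The SD over libraries was 0.58 for Dsg2 and 1.02 to 2.43 for the other 9 genes on the log2 scale, and neighbours in this order lay closer to each other than the larger of their SDs, except Jup and Pkp3.

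The members differed most in how far they ranged. Dsg2 stayed between 3.12 and 5.25 log2 CPM in all 25 libraries, a range of 2.13. Pkp2 ranged over 3.65, from 1.64 to 5.29 log2 CPM. Dsg3, the pemphigus vulgaris antigen of stratified epithelia, ranged over 8.51, from -2.22 to 6.29 log2 CPM. Its lowest value, that of normal replicate 9, came from 0 reads and is set by the prior count, so that this range and the lowest Dsg3/Dsg2 ratio below depend on that choice. Pkp1 ranged over 8.63 and Perp over 8.56 on the same scale. Dsc2, though listed with the simple isoforms, ranged over 6.94, from 2.59 to 9.53 log2 CPM.

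**Figure D1:**
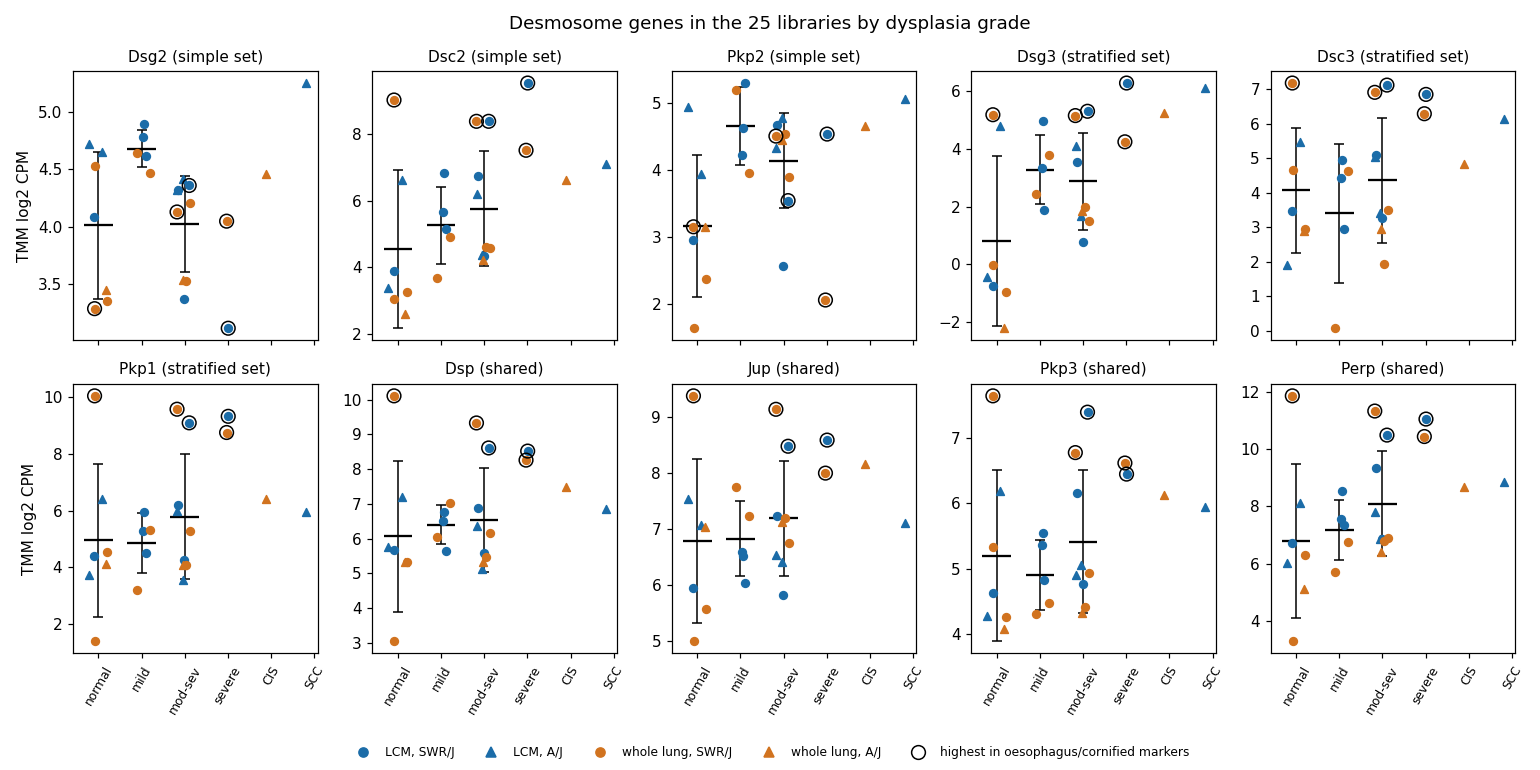
TMM log2 CPM of each desmosome gene (vertical axis) in each of the 25 libraries by dysplasia grade (horizontal axis; mod-sev, moderate to severe; CIS, carcinoma in situ; SCC, SCC tumor). Lines and bars are the mean ± SD for groups of more than 2, colour is the tissue source and shape the strain. Rings mark the 5 libraries highest in oesophagus and cornified markers. They hold the 5 highest levels of 6 of the 10 genes, a count without a background over all genes.

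The same 5 libraries held the 5 highest levels of Dsc2, Dsc3, Pkp1, Dsp, Pkp3 and Perp. The share of all genes with their 5 highest levels in these libraries is not given here, so such counts have no background. Mean Perp was 11.03 ± 0.60 log2 CPM in them (SD, n = 5) and 7.0 ± 1.40 in the other 20. Mean Pkp1 was 9.35 ± 0.49 log2 CPM against 4.73 ± 1.27. Mean Dsc2 was 8.57 ± 0.76 against 4.89 ± 1.41, so a gene of the simple set was among those with the widest gap. Jup and Dsg3 followed in part, with 4 and 3 of these libraries among their 5 highest. Dsg2 and Pkp2 had none of them there, with means of 3.79 ± 0.55 and 3.56 ± 1.03 log2 CPM in the 5 and of 4.28 ± 0.55 and 4.06 ± 1.01 in the other 20. The 5 were chosen by keratin and cornified markers after the data were seen, so these means carry no test.

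**Figure D2:**
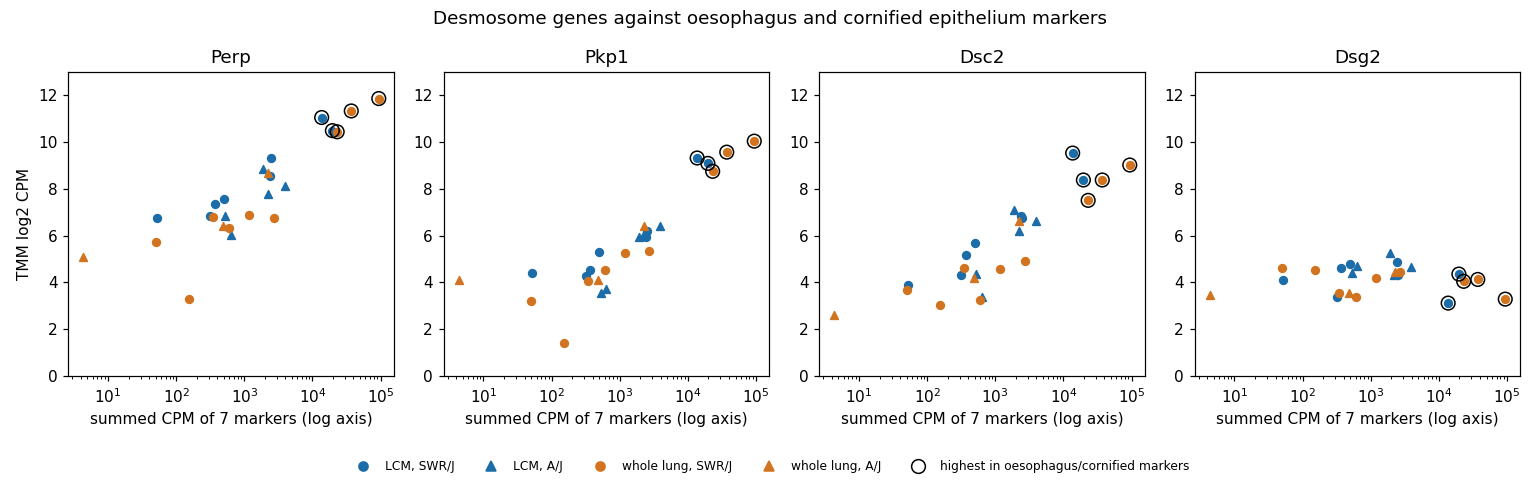
Level of 4 desmosome genes (TMM log2 CPM) against the summed CPM of 7 oesophagus and cornified epithelium markers, on a log axis, in the 25 libraries (colour, source; shape, strain). The 5 ringed libraries stand above the rest for Perp, Pkp1 and Dsc2 and lie within or below the range of the rest for Dsg2.

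None of the 10 genes passed the test between high-grade and normal samples. At an adjusted p under 0.05 (edgeR quasi-likelihood test with median TIN, strain and sample type, Benjamini-Hochberg over all genes), 0 of 10 members were called, as were 0.0192% of the 15630 genes (3 genes). At an unadjusted p under 0.05, 1 member and 1418 genes passed, and DESeq2 also called 0 members. The median log2 fold change of the members was 0.24, against 0.00 over all genes. High-grade and normal samples overlapped for all 10 members, and the share of all genes that overlapped is not given here.

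Pkp2, which anchors desmoplakin at the junction, was the member at an unadjusted p under 0.05. Its lowest, median and highest levels were 1.64, 3.15 and 4.94 log2 CPM in the 7 normal samples and 2.06, 4.51 and 5.05 in the 13 high-grade samples. The fitted difference was 0.90 ± 0.37 (SE, log2), with p = 0.0241 and an adjusted p of 0.495 in edgeR. The normal samples ran lower, but their highest lay within the range of the lesions.

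Dsg3 showed the widest difference and the widest error. It lay at -2.22, -0.44 and 5.19 log2 CPM (lowest, median and highest) in the normal samples and at 0.78, 4.09 and 6.29 in the high-grade samples. The fit gave 1.14 ± 1.01 (SE, log2; adjusted p = 0.73, edgeR). Of the 7 normal samples, 5 were below 0 log2 CPM, with 0 to 7 reads of Dsg3 each, and none of the 18 samples with dysplasia or tumor was, the lowest being 0.78. The other 2 normal samples were replicate 7, with 84 reads and 5.19 log2 CPM, and replicate 10, with 474 reads and 4.80 log2 CPM. Replicate 7 is the normal library highest in the oesophagus markers and replicate 10 is the one described as mild dysplasia. These levels and labels were set side by side after the values were seen, and their part in the result was not tested.

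The other 8 members had fitted differences of -0.22 to 0.32 log2 between high-grade and normal. Dsp, the plakin, was at -0.22 ± 0.60 and Pkp3, a plakophilin of most epithelia, at -0.12 ± 0.43 (SE, log2). Their adjusted p were 0.915 and 0.939 in edgeR. Perp ranged from 3.30 to 11.86 log2 CPM in the normal samples, with a median of 6.32, and from 6.41 to 11.33 in the high-grade samples, with a median of 8.68. Its fitted difference was 0.25 ± 0.70 (SE, log2; adjusted p = 0.916, edgeR). Pkp1 and Jup were at 0.03 ± 0.77 and 0.01 ± 0.43 in the same fit.

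Several of these estimates rested on the 5 libraries. Without them 0 of 10 members were called and 4 were at an unadjusted p under 0.05. Dsg3 was then 2.91 ± 1.11 log2 higher in high-grade samples (SE; adjusted p = 0.265, edgeR), Dsc2 1.63 ± 0.65 (0.277), Perp 1.51 ± 0.61 (0.28) and Pkp2 1.05 ± 0.41 (0.272). The estimates for Dsp and Pkp3 changed sign, to 0.76 and 0.34 log2. None of the 15630 genes was called in that fit. The number of all genes at an unadjusted p under 0.05 in that fit is not given here, so the 4 members have no background. Leaving out normal replicate 7 alone raised the Dsg3 difference to 2.63 ± 1.21 log2 (adjusted p = 0.345, edgeR).

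**Figure D3:**
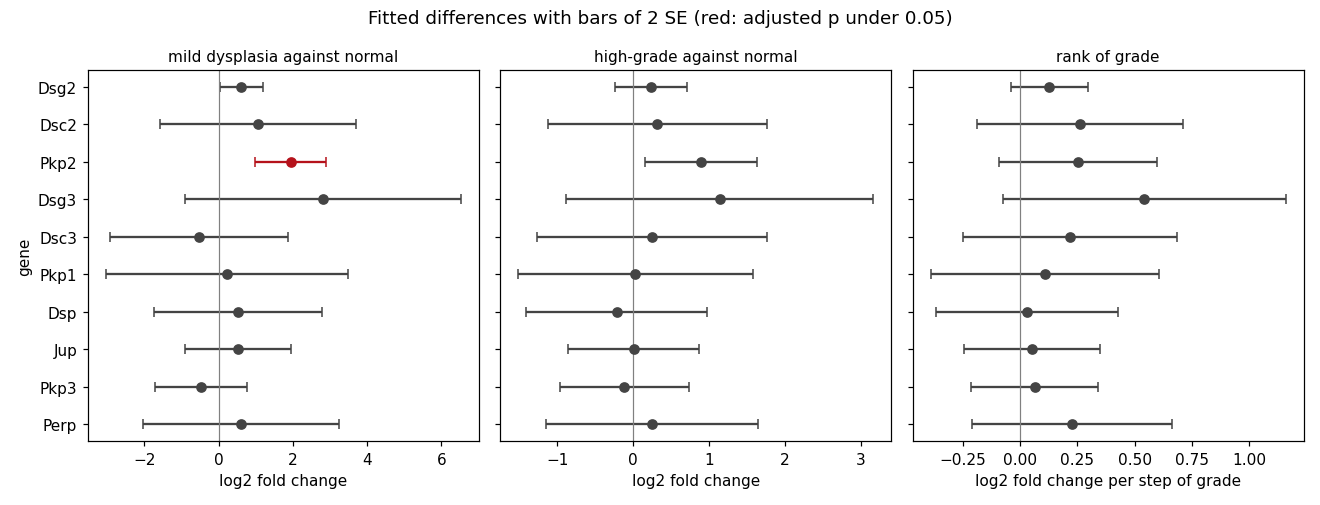
Fitted log2 differences of the 10 genes with bars of 2 SE to either side (horizontal axis) for mild dysplasia against normal, high-grade against normal, and per step of grade. Pkp2 in mild dysplasia, at 1.94, is the only value in red, which marks an adjusted p under 0.05.

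Mild dysplasia differed from normal in 1 member. All 5 mild samples came from SWR/J mice given NTCU and the normal samples from mice without it, so grade and exposure cannot be told apart. Pkp2 rose by 1.94 ± 0.48 log2 (SE; adjusted p = 0.0215, edgeR), and the other 9 members did not pass the test. Over all genes 12.6% were called, so that 1 of 10 members is near the background. The 5 mild samples had 4.22, 5.29, 3.95, 5.18 and 4.62 log2 CPM of Pkp2. The 7 normal samples had 2.95, 4.94, 2.38, 3.15, 1.64, 3.15 and 3.94, so the groups overlapped through 1 normal sample, of an A/J mouse. Within SWR/J the 5 mild samples lay at 3.95 to 5.29 and the 4 normal samples at 1.64 to 3.15 log2 CPM, without overlap. In SWR/J 5.13% of all genes stood higher in mild samples without overlap, and Pkp2 was the only member that did.

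The Pkp2 call depended on the fit. It was lost within LCM samples alone, at 1.41 ± 0.62 log2 (adjusted p = 0.404), and within whole lung alone, at 2.95 ± 0.84 (adjusted p = 0.152), although both estimates were positive (edgeR). With grades taken from the descriptions it was 1.2 ± 0.51 (adjusted p = 0.292, edgeR). Without the 5 libraries it stood at 1.91 ± 0.48 (adjusted p = 0.0247, edgeR). Without normal replicate 8, the library low in epithelial markers and lowest in Pkp2, it was 1.72 ± 0.50 (adjusted p = 0.0452, edgeR). Markers of several other cell types differed in the same contrast, called in some lists and not in others. All 4 tested thymocyte genes fell, and Ptcra, which did not pass the filter, was at 0 in every mild sample. The 5 thymocyte markers summed to 0.9 to 14.3 CPM in mild samples and to 52.0 to 3227 CPM in normal samples. The 8 cardiac muscle genes had a median of 2.18 log2, none called, with sums of 45.9 to 2071 CPM in mild and 91.0 to 243.6 in normal samples. The 4 epithelial markers had a median of 1.26, none called. Their part in the Pkp2 result was not tested.

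Of the other simple isoforms, Dsg2 stood at 4.47 to 4.89 log2 CPM in the 5 mild samples and at 3.29 to 4.72 in the normal samples. Its difference was 0.62 ± 0.29 (SE, log2; adjusted p = 0.146, edgeR). Dsg3 was at 3.33, 1.90, 3.80, 2.43 and 4.97 log2 CPM in the mild samples, and its fitted difference of 2.80 ± 1.86 had an adjusted p of 0.30 in edgeR. This Dsg3 difference was smaller in some fits and larger in others. It was 0.32 ± 1.31 without median TIN, 0.64 without strain and sample type and 0.91 ± 1.36 with the described histology. In DESeq2 it was 2.99 (adjusted p = 0.053), and without the 5 libraries 3.58 ± 1.24 (adjusted p = 0.0572, edgeR). Within SWR/J alone it was 3.82 ± 1.66 and within whole lung alone 6.65 ± 2.82 (adjusted p = 0.121 and 0.214, edgeR). Dsg3 was not called in any of these fits. Dsc3, a desmocollin of stratified cells, reached from 0.07 to 4.94 log2 CPM in the mild samples, where mild dysplasia replicate 4 was lowest. The median of the 10 members was 0.57 log2, and that of all genes -0.03.

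Between high-grade samples and mild dysplasia no member passed, with 0 of 10 called beside 0.339% of all genes and 1 member and 3537 genes at an unadjusted p under 0.05. That member was Pkp2, at -1.04 ± 0.47 (SE, log2; adjusted p = 0.194, edgeR). This comparison shares the mild samples with the preceding one.

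The rank of grade ran from 0 for normal to 4, which the carcinoma in situ and the SCC shared. Over this rank 0 of 10 members and 0.390% of genes were called, and no member and 2128 genes reached an unadjusted p under 0.05. The steepest slope was that of Dsg3, at 0.54 ± 0.31 log2 per step (SE; adjusted p = 0.445, edgeR). At the upper grades Dsg3 had 6.29 and 4.25 log2 CPM in severe dysplasia, 5.24 in the carcinoma in situ and 6.11 in the SCC, which had no replicate. The SCC also held the highest Dsg2 level of all libraries, at 5.25. Its Perp level of 8.84 log2 CPM was below the 10.44 and 11.05 of severe dysplasia. Without the 5 libraries, severe dysplasia was no longer represented, and the slopes were 1.16 ± 0.37 for Dsg3, 0.68 ± 0.20 for Dsc2 and 0.63 ± 0.18 for Perp, with adjusted p of 0.0987, 0.0736 and 0.0673 in edgeR. Together with Dsp they made 4 members at an unadjusted p under 0.05 and 0 called, where 299 genes were called. The number of all genes at that unadjusted p is not given for this fit either.

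The ratio of stratified to simple isoform differed in course among the 3 pairs. Per kilobase, the log2 ratio of Dsg3 to Dsg2 had a median of -3.61 among normal samples, -0.50 for mild dysplasia and 0.72 for the high-grade group. Its range was -4.72 to 2.86 in normal, -1.77 to 1.03 in mild and -1.80 to 4.13 in high-grade samples, which overlap. Of the 7 normal samples, 5 had only 0 to 7 reads of Dsg3, so the normal median also depends in part on the prior count. The ratio of Dsc3 to Dsc2 had medians of -0.44, -1.91 and -1.28 in the same order, so that the stratified desmocollin was the scarcer one in 23 of 25 libraries. The ratio of Pkp1 to Pkp2 had medians of 1.55, 1.17 and 1.75, and Pkp1 was the more abundant plakophilin in 18 of 25 libraries. With the length of the longest transcript, the median over 25 libraries was 0.71 in place of 1.47 for Pkp1/Pkp2, -0.96 in place of -0.50 for Dsg3/Dsg2 and -1.44 in place of -1.27 for Dsc3/Dsc2. Dsg3 was then the more abundant desmoglein in 10 libraries in place of 12, and the other 2 counts stayed the same. The ratios are a description without a test.

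**Figure D4:**
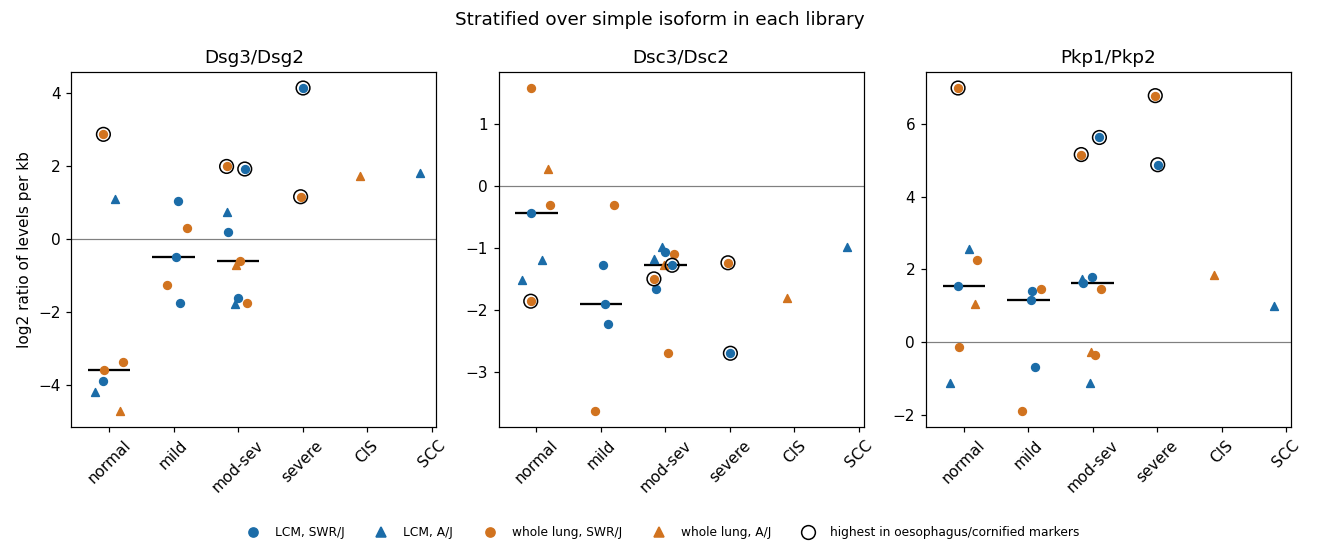
Log2 ratio of the stratified to the simple isoform (levels per kb of exon, vertical axis) in the 25 libraries by dysplasia grade, with colour for source, shape for strain, lines at group medians and rings on the 5 libraries highest in oesophagus markers. Normal samples sit low for Dsg3/Dsg2, with a median of -3.61, whereas Dsc3/Dsc2 lies below 0 in 23 of 25 libraries and Pkp1/Pkp2 is highest, at 4.88 to 6.99, in the ringed libraries.

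Without the 5 libraries, the median Dsg3/Dsg2 ratio was -3.75 in 6 normal samples and -0.61 in 9 high-grade samples, and the Pkp1/Pkp2 ratio was 1.30 and 1.47. In the 5 libraries themselves Pkp1/Pkp2 was 4.88 to 6.99 and Dsg3/Dsg2 1.15 to 4.13. Dsc3/Dsc2 was -2.70 to -1.25 in them, where mean Dsc3 was 6.87 log2 CPM against 3.72 in the other 20, a narrower gap than that of Dsc2.

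No member was called between tissue sources or strains. Between LCM and whole lung 0 of 10 members and 14.6% of genes were called, and 0 members and 4756 genes were at an unadjusted p under 0.05. The widest estimate was Dsc2, at 0.82 ± 0.66 log2 higher in LCM (SE; adjusted p = 0.426, edgeR), and Jup was at -0.52 ± 0.38. In the same contrast all 5 endothelial markers fell. Between A/J and SWR/J 0 of 10 members and 1.02% of genes were called, with 1 member and 2740 genes at an unadjusted p under 0.05. Pkp2 was that member, at 1.2 ± 0.47 log2 higher in A/J (SE; adjusted p = 0.202, edgeR). Its levels were 3.15, 4.54 and 5.05 (lowest, median, highest) in 8 A/J samples and 1.64, 3.95 and 5.29 log2 CPM in 17 SWR/J samples. The high-grade effect was not shown to differ between sources or between strains, where 0 of 10 members and 0% of genes were called in both interactions, with 0 members unadjusted and 1110 and 669 genes. The intervals were wide, with SEs of 0.39 to 1.72 log2 for the members in the interaction with source.

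On RNA quality 1 of 10 members was called, near the share of all genes, and the slopes of the members rested on the same 5 libraries. For each 10 units of median TIN, Perp fell by 1.14 ± 0.34 log2 (SE; adjusted p = 0.0465, edgeR), the only member called beside 6.99% of genes. Another 5 members reached an unadjusted p under 0.05, all with negative slopes, where 4008 of all 15630 genes passed that threshold. Pkp1 was at -1.10 ± 0.39, Dsc2 at -1.05 ± 0.34, Dsp at -0.76 ± 0.28, Jup at -0.55 ± 0.19 and Pkp3 at -0.47 ± 0.18. Dsg2 was the only member with a positive slope, at 0.18 ± 0.09. Without the 5 libraries 0 of 10 members were called and 0 reached an unadjusted p under 0.05, while 35 genes were called. Perp was then at -0.05 ± 0.32 (adjusted p = 0.985, edgeR), Pkp1 at 0.05 ± 0.33 and Dsc2 at 0.16 ± 0.33 log2. Without normal replicate 7 alone, the Perp slope was -0.77 ± 0.30 (adjusted p = 0.185, edgeR). The call on Perp was lost in 15 of the 25 fits that each left out 1 library.

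Levels of the members were compared pair by pair across libraries. Over the pairs of members, 27 of 45 correlations passed in the 13 LCM libraries and 26 of 45 in the 12 whole lung libraries (permutation test of Pearson's r, adjusted over 45 pairs). The share of passing pairs among other genes is not given here, so these counts and those below have no background. Because the 5 libraries form a group of their own, values are given for the remaining libraries. In 11 LCM libraries, 22 of 45 pairs passed. Dsc2 went with Dsg3 (r = 0.963, adjusted permutation p = 0.00045; rho = 0.964, 0.000675; r = 0.941 without the 2 farthest samples). It also went with Perp (r = 0.949, adjusted permutation p = 0.00045; rho = 0.964, 0.00045; r = 0.92 without the 2 farthest). With its fellow simple isoforms Dsc2 had r = 0.487 (Dsg2, adjusted permutation p = 0.205) and r = 0.323 (Pkp2, adjusted permutation p = 0.386). Pkp1 and Dsp went together at r = 0.951 (adjusted permutation p = 0.0009; rho = 0.882, 0.00622; r = 0.959 without the 2 farthest). Dsg2 and Pkp2 were at r = 0.782 (adjusted permutation p = 0.00869), but rho was 0.518 with an adjusted p of 0.187, and r was 0.511 without the 2 farthest, so that this relation rested on those samples. In 9 whole lung libraries Dsg2 and Pkp2 were at r = 0.171 (adjusted exact permutation p = 0.75). Of the 45 pairs 7 passed in these whole lung libraries by the exact permutation test, and 2 of them also passed by rank. Dsc2 and Perp were at r = 0.853 there (adjusted exact p = 0.0394; rho = 0.9, 0.0456; r = 0.759 without the 2 farthest). Pkp2 and Jup were at r = 0.925 (adjusted exact p = 0.0147; rho = 0.917, 0.0456; r = 0.647 without the 2 farthest). Dsc2 and Dsc3, closely tied in LCM at r = 0.929, were at r = 0.357 in whole lung (adjusted exact p = 0.533), and the difference was not tested.

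Of 14200 other genes whose mean reached 1 log2 CPM, those most like the mean of Dsg3, Dsc3 and Pkp1 over 25 libraries were Duoxa1 (r = 0.95), Prss27 (0.936), Lad1 (0.931), Ces2g (0.928) and Car12 (0.927). Lad1 encodes ladinin, an anchoring filament protein of the basement membrane, and Prss27 a protease of squamous epithelia. In the 20 libraries outside the group of 5, r was 0.851 to 0.894 for these genes. Those most like the mean of Dsg2, Dsc2 and Pkp2 were Ehf (0.929), Pvrl4 (0.924), Lrig3 (0.923), Ano9 (0.922) and Fam83h (0.921), with 0.922 to 0.943 in the 20 libraries. Ehf is an epithelial ETS factor and Pvrl4 is nectin-4, an adherens junction protein. The mean of the simple set moved mostly with Dsc2, the member of widest range. The points share libraries and their depth, and these likenesses are descriptions.

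The neighbours of the desmosome were examined from lists of the same kind. In high-grade against normal 0 members of any junction or keratin list were called. In mild dysplasia against normal 3 of 10 adherens junction genes rose (Ctnna1 by 1.40 ± 0.34, Ctnnb1 by 0.99 ± 0.27 and Pvrl2 by 0.91 ± 0.29 log2, SE; adjusted p = 0.021, 0.0271 and 0.0457, edgeR). Alpha- and beta-catenin couple E-cadherin to actin, and E-cadherin itself (Cdh1) was at 1.55 ± 0.58 with an adjusted p of 0.0745. Of 13 tight junction genes 3 rose, namely Marveld3 by 1.92 ± 0.49, Cldn7 by 2.10 ± 0.60 and Tjp3 by 1.24 ± 0.41 log2 (adjusted p = 0.0231, 0.0308 and 0.0493, edgeR). Of 9 hemidesmosome genes, which fix cells to the basement membrane, Cd151 rose by 0.94 ± 0.25 (adjusted p = 0.0267, edgeR). None of these genes fell. These calls depended on the fit as that of Pkp2 did, since no gene of the whole table was called in this contrast without strain and sample type as covariates, in LCM alone, in whole lung alone or with the described histology. The list medians were 1.18 for adherens junction, 1.60 for tight junction and 0.81 for hemidesmosome genes, beside -0.03 for all genes and 12.6% of them called.

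Of 9 further desmosome and cornified desmosome genes 5 passed the filter, and Pkp4, a plakophilin-like protein of several junctions, rose by 0.91 ± 0.25 log2 in mild dysplasia (adjusted p = 0.0284, edgeR), a call lost in the same 4 fits. Dsg1a, Ppl, Evpl and Cdsn, of the upper layers of stratified epithelia, were not called in any grade comparison. Dsg1a had 7.67 ± 0.91 log2 CPM in the 5 libraries and 0.40 ± 2.00 in the other 20, and it has near-identical copies between which reads may have been split. None of the 9 stratified keratins, the 4 simple keratins or the 7 regulators of stratified epithelia was called between mild and normal. Among the reference genes Krt5, the basal keratin, was at 0.32 ± 1.15 and Trp63 at 0.12 ± 0.79. Epcam was at 1.36 ± 0.50, Krt8 at 1.16 ± 0.62 and Krt18 at 0.21 ± 0.78 log2, with adjusted p of 0.0694, 0.197 and 0.878 in edgeR. In high-grade samples the same 6 reference genes were at 0.17 to 0.76 log2 and none passed.

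The genes lie at several places in the mouse genome (NCBIM37). The 4 cadherins form 1 cluster on chromosome 18, with Dsc3 at 20119431 to 20160598 and Dsc2 at 20189134 to 20218055 on the minus strand, and Dsg3 at 20668805 to 20705360 and Dsg2 at 20716575 to 20763022 on the plus strand. Within it, Dsg2 stayed within 2.13 log2 units where the adjacent Dsg3 spanned 8.51. The lowest Dsg3 value, of a library without a read of it, is set by the prior count. Dsp is on chromosome 13 (38243197 to 38290446), Pkp1 on chromosome 1 (137767972 to 137815784), Pkp2 on chromosome 16 (16213411 to 16272805) and Pkp3 on chromosome 7 (148264117 to 148276409). Jup is on chromosome 11 (100230272 to 100259077) and Perp on chromosome 10 (18564877 to 18576879). Dsg2 overlaps the gene Gm16090 and Dsp the gene Gm10129, each on the other strand, and the libraries do not mark strand, so reads from the overlap cannot be assigned between them.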

How the data were processed

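RNA of 40 mouse samples was sequenced by the authors from unstranded TruSeq libraries as single-end reads of 50 nucleotides. Per the submitters' processing notes the reads were trimmed with Trimmomatic, aligned to mm9 with STAR and counted with RSEM. The authors deposited expected counts per gene, without normalization, and 88.8% of the values are whole numbers. RSEM divides reads that fit several genes, so counts of near-identical genes are uncertain.

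The 25 samples with the passed label were grouped by the dysplasia label, and 15 were left out. Replicate numbers follow the order of deposition and pair nothing. No 2 of the 300 pairs of libraries were identical. Gene symbols and positions came from GENCODE vM1 (NCBIM37), where all 37310 identifiers were found. Expected counts were rounded and tested in edgeR 4.0.16 (R 4.3.3; TMM, robust quasi-likelihood) adjusting for strain, sample type and median TIN, over 15630 genes with an interquartile range above 0 and a sum above 1 of log2 CPM (prior count 2). Benjamini-Hochberg adjusted p under 0.05 was the threshold. DESeq2 1.42.0, other scalings, filters, covariates and sample sets were alternatives. The edgeR script was tested on simulated data. Correlations used 100000 permutations, for which 1e-05 is the smallest p, or all permutations under 10 samples. Levels per kb used the summed exon length.

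The members and lists were chosen with earlier results of these data known. All 10 members and 6 reference genes (Krt5, Trp63, Cdh1, Epcam, Krt8 and Krt18) are named, and from each list at most 4 genes with an adjusted p under 0.05 per grade comparison, with the 5 genes most like each isoform set. Dsg1a, Ppl, Evpl and Cdsn are named outside this rule. The marker Flg has several identifiers, of which the first was used. The 25 samples had 24530705 to 38431062 reads each. Leaving out the 5 libraries highest in oesophagus markers or normal replicate 8, and the alternatives for the slope on TIN, were chosen after the data were seen. Promoter sequences of other members are not reported here.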

Additional observations from a re-analysis of the deposited data

How the results depend on the processing

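The count of members called stayed at 0 under every alternative that was run for high-grade against normal, high-grade against mild dysplasia, rank of grade, source, strain and both interactions. In mild dysplasia against normal it was 1, and it became 0 without strain and sample type as covariates (2 members unadjusted), in LCM samples alone (2), in whole lung samples alone (7) and with the described histology (1). Leaving out 1 library at a time gave 0 to 1, with 0 without mild dysplasia replicate 2 (Pkp2 at 1.84 log2, adjusted p = 0.0501, edgeR) or replicate 4 (1.69, adjusted p = 0.0507). In these 2 fits 796 and 671 genes were called in all, and in the other 4 fits 0, against 1968. The Pkp2 difference was positive in each fit, from 1.2 to 2.95 log2, and was 1.34 ± 0.48 without strain and sample type. The cause was not tested. For the slope on median TIN, 1 member was called, against 6 in DESeq2, 7 without strain and sample type, 4 in whole lung alone, 2 in SWR/J alone and 5 with the described histology. It was 0 in LCM alone (0 unadjusted), without a gene filter (6), without the samples of conflicting histology (6), without normal replicate 8 (6) and without the 5 libraries (0), and 0 to 5 on leaving out 1 library at a time. The cause was not tested. For the alternative fits of this slope, other than that without the 5 libraries, the share of all genes called is not given here. Their counts of members therefore have no background beside them, and the same holds for the unadjusted counts of all alternatives. Of 2600 recomputed differences and slopes of single members, 187 changed sign, all of them uncalled in both fits, 26 lost the call and 33 gained one. Of 69 recomputed levels and ratios, 1 moved by 1 SD or more, the mean Dsg2 level of mild dysplasia, which was 4.89 log2 CPM without TMM. No paired analysis was possible because the replicate numbers are only names. With 1 to 4 samples of a grade per source and strain, the SEs of Dsg3 and Dsc2 allow differences of over 1 log2 to go uncalled.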

Other observations

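None of the 30 tests of a single library against the rest of its group (normal, mild dysplasia, and moderate to severe dysplasia, 10 genes each) passed, where chance gives about 1 in 20. Without the libraries high in oesophagus markers, the 6 normal samples still held Dsg3 at -2.22 to 4.80 log2 CPM and the 9 high-grade samples at 0.78 to 6.11.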
